A study of Mus musculus with 6 samples.

Results

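The interferon-stimulated genes described here were 47 named genes of 56941 in a gene count table from mouse hair follicle stem cells (HFSCs), and all 47 were found in the table by symbol. They had been chosen as a group because they were high in the libraries labelled Dab2-cKO in these same data, so their difference between the genotypes is given as a description, with no test. The table held 6 libraries, 3 labelled WT and 3 labelled Dab2-cKO, each from FACS-sorted CD34+ and α6-integrin+ cells of the dorsal skin epidermis of female mice at postnatal day 68, an age at which the study places both genotypes in the second telogen, the resting phase of the hair cycle. The mice were of the strain B6;129S4-Dab2tm1Cpr/J, a designation for a mixed background, and whether the genotypes shared the same background at each locus was not tested. Both genotypes carried Dab2 fl/fl and received tamoxifen at 75 mg/kg a day for 5 days. The Dab2-cKO mice carried one K14CreER allele, in which the K14 promoter drives the recombinase in basal keratinocytes, the outer root sheath included, and not in the bulge alone. The WT mice lacked the Cre, so the genotypes also differed in the presence of CreER under tamoxifen, and effects of Dab2 and of the recombinase cannot be told apart in this design. The study calls the libraries of a genotype independent biological replicates. The count of Dab2 itself went against the labels, with a mean of 1375 normalized counts in the Dab2-cKO libraries and 327 in the WT libraries. The labels are therefore used below as names of libraries, without a check from the gene itself.

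Interferons are secreted proteins that cells release on sensing viral nucleic acid. Type I interferons bind the receptor made of Ifnar1 and Ifnar2, type III interferons bind Ifnlr1 with Il10rb, and both act through the kinases Jak1 and Tyk2 on the complex ISGF3, to which Stat2 and Irf9 belong and which binds the interferon-stimulated response element (ISRE) in promoters. Interferon gamma binds Ifngr1 and Ifngr2 and acts through Jak1 and Jak2 and the gamma-activated site (GAS). The genes switched on in this way encode sensors of nucleic acid, enzymes that block viral replication, ubiquitin-like modifiers and the transcription factors of the pathway itself, and stem cells of several tissues are known to keep some of them at a basal level.

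The promoters of the members are shown first, since interferon is known to act through sequences in promoters. Promoter sequence was not used to choose the genes. They are known interferon-stimulated genes, however, so a share of ISRE matches above that of all genes follows from their kind. RefSeq promoter windows of 250 bases before and 50 bases after each annotated start (build GRCm38.p6) were matched by symbol to 36 of the 47 members. No entry was matched for Usp18, Rtp4, Dhx58, Oas2, Parp9, Parp10, Ifi27l2a, Mx2, Parp14, Zbp1 and Mx1. The ISRE core, spelled GAAANNGAAA and searched on both strands, was found in the windows of 17 of the 36 members, which is 47.2% (95% Wilson interval 32.0 to 63.0%), against 3.99% of 27025 genes with a window. In a separate list of other interferon-stimulated genes that are not members, 29 of 65 windows held it (44.6%). The GAS core, spelled TTCNNNGAA and identical to its reverse complement, was found in 6 of the 36 member windows (16.7%, interval 7.87 to 31.9%), against 9.55% of all genes, a share that lay within the members' interval. The interval covers counting error only, and windows of related genes, such as those of Ifit3 and Ifit3b, share their sequence and are not independent.

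The 9 stretches below are those of the members with 2 or more matches before the start in 1 window, shown because the matches lie close together in them. All lie before the annotated start, run 5′ to 3′ on the strand of the gene, and have the bases of every ISRE core match in capitals, on either strand, so that overlapping matches appear as 1 run. Isg15 (chr4:156200859-156200918, minus strand) held 3 overlapping matches, Gbp3 (chr3:142559974-142560033, plus strand), Oas1a (chr5:120907526-120907585, minus), Bst2 (chr8:71537563-71537622, minus) and Oas1g (chr5:120887614-120887671, minus) held 2 overlapping matches each, and Ifit1 (chr19:34640769-34640828, plus), Ifit3 (chr19:34583359-34583428, plus), Ifit3b (chr19:34607755-34607824, plus) and Ddx60 (chr8:61928022-61928081, plus) held 2 separate ones. These coordinates are of GRCm38.p6.
Isg15: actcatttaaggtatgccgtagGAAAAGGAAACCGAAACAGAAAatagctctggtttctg
Gbp3: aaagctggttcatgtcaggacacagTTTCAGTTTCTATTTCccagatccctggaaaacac
Oas1a: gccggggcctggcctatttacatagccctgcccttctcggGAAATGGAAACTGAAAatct
Oas1g: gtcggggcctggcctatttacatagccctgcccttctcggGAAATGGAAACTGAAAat
Ifit1: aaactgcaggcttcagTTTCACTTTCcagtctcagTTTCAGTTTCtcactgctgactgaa
Ifit3: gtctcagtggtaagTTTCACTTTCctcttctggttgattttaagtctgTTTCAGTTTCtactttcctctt
Ifit3b: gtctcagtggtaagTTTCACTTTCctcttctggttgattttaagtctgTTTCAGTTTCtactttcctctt
Bst2: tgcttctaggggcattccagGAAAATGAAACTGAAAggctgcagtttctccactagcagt
Ddx60: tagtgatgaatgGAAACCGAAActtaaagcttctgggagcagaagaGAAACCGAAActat

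The printed 70 bases of Ifit3 and Ifit3b were identical, and the 2 promoters matched at 188 of 218 bases (86.2%) when laid side by side without gaps. The 17 members with a match held 28 matches, of which 25 lay before the start and 24 within the last 200 bases before it. In Ifih1 and Eif2ak2 the matches lay after the start only, and in Stat2 the match lay farther out, from base -222 to -213. The plot of match positions shows this crowding near the start. The members with a match had a median log2 fold change of 2.74 (1.59 to 5.14), and the 19 with a window but no match had a median of 2.199 (1.23 to 3.81). The ranges overlapped widely, and Irf7 and Oasl2, with log2 fold changes of 3.81 and 3.68, had no match in these windows.

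**Figure D1:**
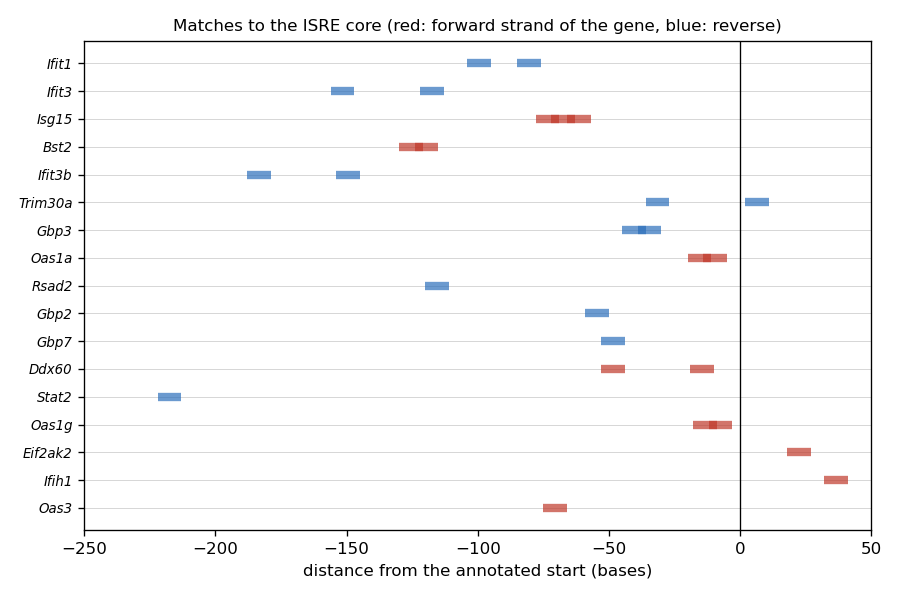
Positions of the ISRE core (GAAANNGAAA on either strand) in the RefSeq windows of the 17 members that hold it, in bases from the annotated start (0), with genes ordered from the highest log2 fold change at the top. Each bar is 1 match, and 25 of the 28 matches lie to the left of the start.

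Expression was given as counts of reads per gene. Values below are normalized counts, that is counts divided by the TMM-scaled library size and set to the mean of the 6 libraries, with the mean ± SD of 3 libraries a genotype, and log2 fold changes are from edgeR for the libraries labelled Dab2-cKO over those labelled WT. Total counts were 7040032 to 9518564 in WT and 9374373 to 11696457 in Dab2-cKO. Of the 56941 genes, 32149 passed the low-count filter, and all 47 members were among them. The 2 genotypes differed over much of the table: at an adjusted p under 0.05 (edgeR, quasi-likelihood), 16.8% of the genes tested were higher in Dab2-cKO and 11.5% were lower, and in 20.6% all 3 Dab2-cKO libraries lay above all 3 WT libraries. The split of the calls depended on the scaling, with 59.4% of them higher here, 46.4% when scaled to Actb, 43.5% with upper-quartile scaling and 19.4% with library size only, a setting that moved the median log2 fold change of all genes from -0.02 to -0.45. The share of mitochondrial counts was 13.0 to 14.4% in WT and 19.1 to 20.3% in Dab2-cKO.

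Markers of other cells also differed between the genotypes. The summed normalized counts of 23 immune cell markers were 2461 to 2617 in WT and 9669.5 to 9737 in Dab2-cKO, with 15 of the 23 called higher, 0 lower and Itgax, Trac, Trdc, Nkg7, Cd79a and Siglech among the 8 not called. Those of 10 fibroblast markers rose from a mean of 116699 to 376517 and those of 10 endothelial markers from 1967 to 6439, with all 10 of each list called higher, and those of 8 skeletal muscle markers rose from 25489 to 132399 (7 called higher). By contrast, 18 of 18 hair shaft and inner root sheath markers (summed means of 276592 in WT and 2614 in Dab2-cKO) and 7 of 8 melanocyte markers were called lower. The 11 HFSC markers were present in all libraries, with sums of 21075 to 24164 in WT and 37165 to 38220 in Dab2-cKO, 8 of them called higher and 3 (Lhx2, Sox9 and Lgr5) lower. In sorted bulk libraries, more cells of a type and more RNA per cell cannot be told apart. The part of these cells in the member values was not tested. The largest log2 fold change among the 43 immune, fibroblast and endothelial markers was 2.53 and their median was 1.599, and the 8 skeletal muscle markers had a median of 2.45 and a largest value of 2.65.

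All 47 members were higher in the libraries labelled Dab2-cKO, and in every member the lowest Dab2-cKO library lay above the highest WT library, by at least 2.05 times. Both the call (47 of 47, beside 16.8% of all genes) and the separation (47 of 47, beside 20.6%) follow from how the genes were chosen, and nothing is read from them. The members' summed counts were 5445, 5508 and 5746 in the WT libraries and 33677, 34071 and 33455 in the Dab2-cKO libraries, a ratio of means of 6.06. Within a genotype the sums were thus within a few percent of each other, and no library of either genotype lay between the groups. The median log2 fold change was 2.39, with quartiles of 2.09 and 3.06 and a range of 1.23 in Trafd1 to 5.14 in Ifit1, while the median over all genes tested was -0.02 and 185 of the 32149 genes tested (0.575%) had a larger one than the median member. In 13 members the log2 fold change was over 3, in 24 it was 2 to 3, and in 10 it was under 2. The median coefficient of variation over 3 libraries was 13.0% in WT and 5.95% in Dab2-cKO.

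**Figure D2:**
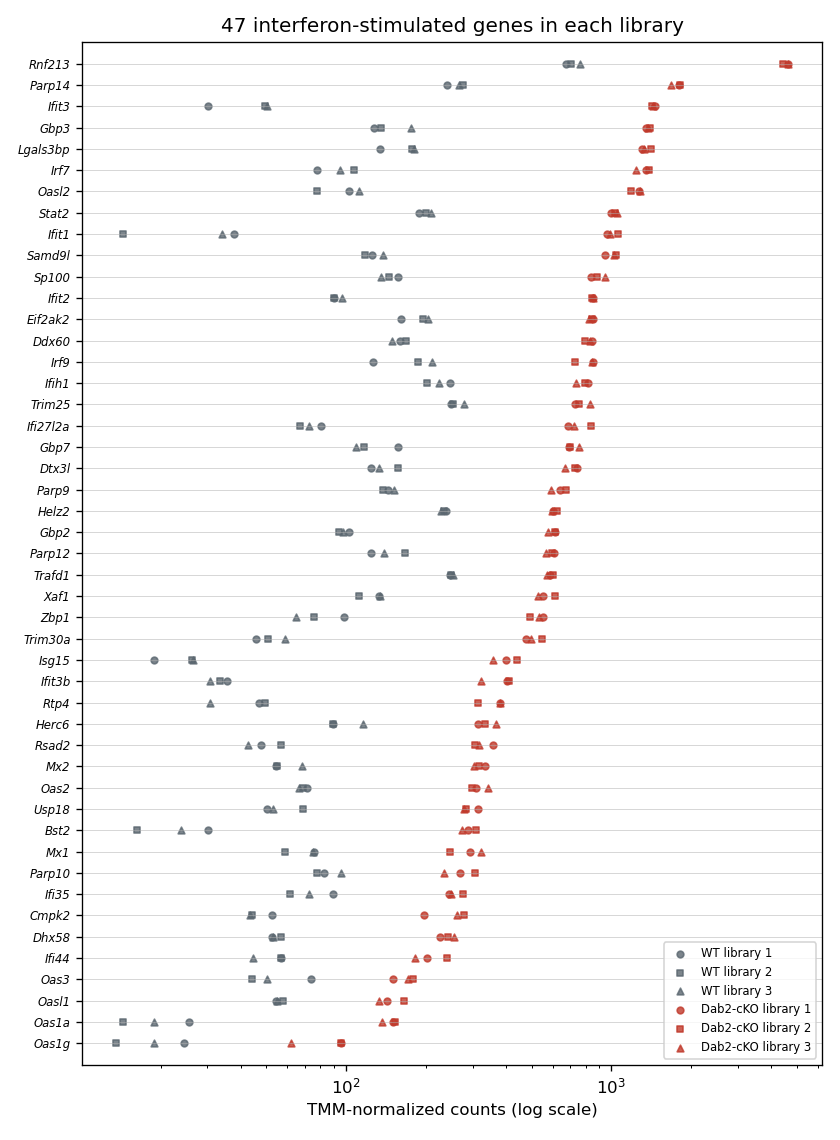
TMM-normalized counts (log scale) of the 47 members in each of the 3 WT libraries (grey) and 3 Dab2-cKO libraries (red), with marker shape giving the library number and genes ordered by their Dab2-cKO mean. Within each gene the red points lie to the right of all grey points, and the gap is widest in Ifit1 and Ifit3.

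The transcription factors among the members were Stat2 and Irf9, which belong to ISGF3, and Irf7, which drives the genes of interferon alpha and beta. Irf7 had 77.9, 107 and 94.8 normalized counts in the WT libraries and 1348, 1383 and 1239 in the Dab2-cKO libraries (log2 fold change 3.81 ± 0.10, SE). Stat2 had 188, 199.5 and 209 in WT against 1000.3, 1029 and 1051, for a log2 fold change of 2.36 ± 0.09. Irf9 had 126, 186 and 210.2 against 852, 728 and 843 (2.199 ± 0.11), and part of it shares exon sequence on the same strand with Rnf31 (4.86% of its exon length). Irf7 differed more than its partners, and in all 3 genes the spread within a genotype was small beside the gap between them.

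The IFIT proteins, which bind viral RNA and block its translation, held the 2 largest changes. Ifit1 (ENSMUSG00000034459) had 37.9, 14.4 and 34.2 normalized counts in WT and 964, 1062 and 990.0 in Dab2-cKO (log2 fold change 5.14 ± 0.14). Ifit3 (ENSMUSG00000074896) had 30.1, 49.6 and 50.4 against 1461, 1426 and 1436 (5.02 ± 0.11). Its paralog Ifit3b, which shares the promoter stretch printed above, had 35.6, 33.4 and 30.8 against 403, 411 and 323 (3.51 ± 0.15). Per kb of exon the levels of Ifit3 and Ifit3b were close in WT, at 15.1 and 16.3, and apart in Dab2-cKO, at 500.3 and 186. Reads shared by these near-identical genes may have been dropped or split in counting, which was not stated, so their separate levels are uncertain. Ifit2 had 90.2, 90.3 and 96.5 against 853, 846 and 852 (3.20 ± 0.10), the most even of the family over libraries. Together the 4 genes gave 3.55% of the members' counts in WT and 10.9% in Dab2-cKO.

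Isg15 is a ubiquitin-like protein that is attached to other proteins, Herc6 is its main ligase in the mouse, and Usp18 removes it and also holds back the type I receptor. Isg15 (ENSMUSG00000035692) had 18.9, 26.2 and 26.5 normalized counts in WT and 399.6, 442 and 358 in Dab2-cKO, a log2 fold change of 4.04 ± 0.16. On the opposite strand 31.1% of its exon length is shared with the gene model Gm46878, and since the strand setting of the counting was not stated, reads of the pair cannot be told apart. Usp18 differed less, with means of 57.2 ± 9.96 and 292 ± 20.1 (2.34 ± 0.15), and Herc6 had 97.9 ± 15.1 and 339 ± 27.4 (1.78 ± 0.13).

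The OAS family binds double-stranded RNA, and its enzymatically active members make a nucleotide messenger of the antiviral response. Oasl2 had 102, 77.6 and 112 normalized counts in WT and 1267, 1187 and 1285 in Dab2-cKO (log2 fold change 3.68 ± 0.10), and per kb of exon the highest level of the family in Dab2-cKO (195.6). The neighbouring Oasl1, which is known to restrain translation of Irf7, had 54.6, 57.8 and 54.7 against 143, 165 and 134 (1.40 ± 0.18), one of the 5 smallest changes of all members. Oas3 was also among these, with 73.5, 44.2 and 50.4 against 151, 178 and 171 (1.59 ± 0.18). Oas1a and Oas1g, with nearly the same printed promoter stretch, had the lowest counts of all members. Oas1a had 25.6, 14.4 and 18.8 against 151, 153 and 137 (2.92 ± 0.22), and Oas1g had 24.5, 13.5 and 18.8 against 95.4, 95.5 and 61.8 (2.17 ± 0.27). The third Dab2-cKO library was the lowest of its genotype in both. Oas2 had means of 68.8 ± 2.32 and 317 ± 22.8 (2.202 ± 0.14). The difference between members of 1 family was thus large, from 1.40 to 3.68 on the log2 scale.

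The nucleic acid sensors among the members were more alike. Ifih1 (MDA5) and Dhx58 (LGP2) recognise viral double-stranded RNA, Ddx60 assists them, Zbp1 binds Z-form nucleic acid, and Eif2ak2 (PKR) halts translation. Their log2 fold changes ran from 1.81 ± 0.09 for Ifih1 (means 224 ± 21.9 and 784 ± 40.8) to 2.74 ± 0.12 for Zbp1 (79.6 ± 16.8 and 527 ± 28.7). Eif2ak2 had means of 187 ± 22.5 and 840.3 ± 16.8 (2.16 ± 0.09), Ddx60 of 159 ± 9.20 and 822 ± 23.6 (2.37 ± 0.10) and Dhx58 of 54.1 ± 2.46 and 241 ± 14.5 (2.15 ± 0.15).

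Among the GTPases, Mx1 and Mx2 are antiviral proteins, and the guanylate-binding proteins Gbp2, Gbp3 and Gbp7 attack vacuoles that hold pathogens. Gbp3 had 127, 135 and 175 normalized counts in WT and 1349, 1403 and 1369.7 in Dab2-cKO (log2 fold change 3.22 ± 0.09). Gbp2 had 102, 93.9 and 97.4 against 611, 613 and 576 (2.62 ± 0.11), and Gbp7 had 157, 116 and 109 against 691, 698 and 755 (2.50 ± 0.11). These 3 genes lie in 1 cluster on chromosome 3, and Gbp3 had the largest change of the 3 and, in Dab2-cKO, the highest level per kb of exon (323, against 234 for Gbp2 and 119 for Gbp7). Mx1 had 75.7, 58.7 and 75.2 against 293, 247 and 321 (2.04 ± 0.14), and Mx2 had 54.6, 55.1 and 68.4 against 335, 318 and 302 (2.41 ± 0.14).

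The ADP-ribosyltransferases Parp9, Parp10, Parp12 and Parp14 and the ubiquitin ligase Dtx3l, the partner of Parp9, made up 13.9% of the members' counts in WT and 11.8% in Dab2-cKO. Parp14 had the second highest count of all members, with 239, 276 and 267 normalized counts in WT and 1792, 1811 and 1678 in Dab2-cKO (log2 fold change 2.75 ± 0.08). Dtx3l had 124, 156 and 132 against 741, 731 and 668 (2.37 ± 0.10), and Parp9 had 144, 138 and 152 against 643, 674 and 594 (2.14 ± 0.10). The last 2 genes overlap head to head, over 9.12% of the exon length of Parp9. Parp12 had a log2 fold change of 2.04 ± 0.11 and Parp10 of 1.65 ± 0.14.

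Several effectors act on the virus itself. Rsad2 (viperin) makes a chain-terminating nucleotide, Cmpk2 beside it in the genome supplies its substrate, Bst2 (tetherin) holds virions at the membrane, and Samd9l restricts poxviruses. Samd9l had 125, 117 and 138 normalized counts in WT and 943, 1037 and 1019 in Dab2-cKO (log2 fold change 2.98 ± 0.10), and Bst2 had means of 23.4 ± 6.92 and 290.0 ± 17.9 (3.65 ± 0.18). Rsad2 had 47.9, 56.9 and 42.7 against 359, 307 and 318 (2.74 ± 0.15), and Cmpk2 had 52.3, 44.2 and 43.6 against 196, 277 and 262 (2.39 ± 0.16), with the first Dab2-cKO library the lowest of its genotype in Cmpk2 and the highest in Rsad2. Rtp4, a chaperone of receptors that binds viral RNA, had a log2 fold change of 3.09 ± 0.15, with 26.6% of its exon length shared with Gm45338 on the same strand. Helz2, a helicase and nuclear receptor coactivator, changed little beside these, with 237, 235 and 227 against 604, 624 and 599 (1.39 ± 0.09).

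The ubiquitin ligases and regulators included both the highest count and the smallest change of all members. Rnf213, a very large ligase, had 671, 705 and 759.6 normalized counts in WT and 4646, 4448 and 4644 in Dab2-cKO (log2 fold change 2.68 ± 0.07) and alone gave 12.8% of the members' counts in WT and 13.6% in Dab2-cKO. Trim25, which activates the sensor Rigi, had 249, 252 and 278 against 729, 756 and 828 (1.57 ± 0.09). Trafd1, a brake on immune signaling, had 247, 248 and 254 against 585, 601 and 571 (1.23 ± 0.09). Trim30a, another negative regulator, had means of 51.7 ± 6.73 and 508 ± 36.0 (3.28 ± 0.13). The regulators thus ran through most of the members' range.

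Of the remaining induced genes, Lgals3bp, a secreted glycoprotein, had 135, 178 and 180.3 normalized counts in WT and 1299, 1414 and 1326 in Dab2-cKO (log2 fold change 3.02 ± 0.09), and Sp100, a nuclear body protein, had 157, 144 and 135 against 840.1, 881 and 944 (2.61 ± 0.10). Ifi27l2a, a small hydrophobic protein, had means of 73.2 ± 6.70 and 748 ± 77.5 (3.36 ± 0.11), with 15.0% of its exon length shared with Ifi27 on the opposite strand. Xaf1, a proapoptotic factor, had a log2 fold change of 2.16 ± 0.11 and Ifi44 of 1.98 ± 0.17. Ifi35 had 1.79 ± 0.15, with 24.5% of its exon length shared on the opposite strand with Vat1 and Gm11626.

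**Figure D3:**
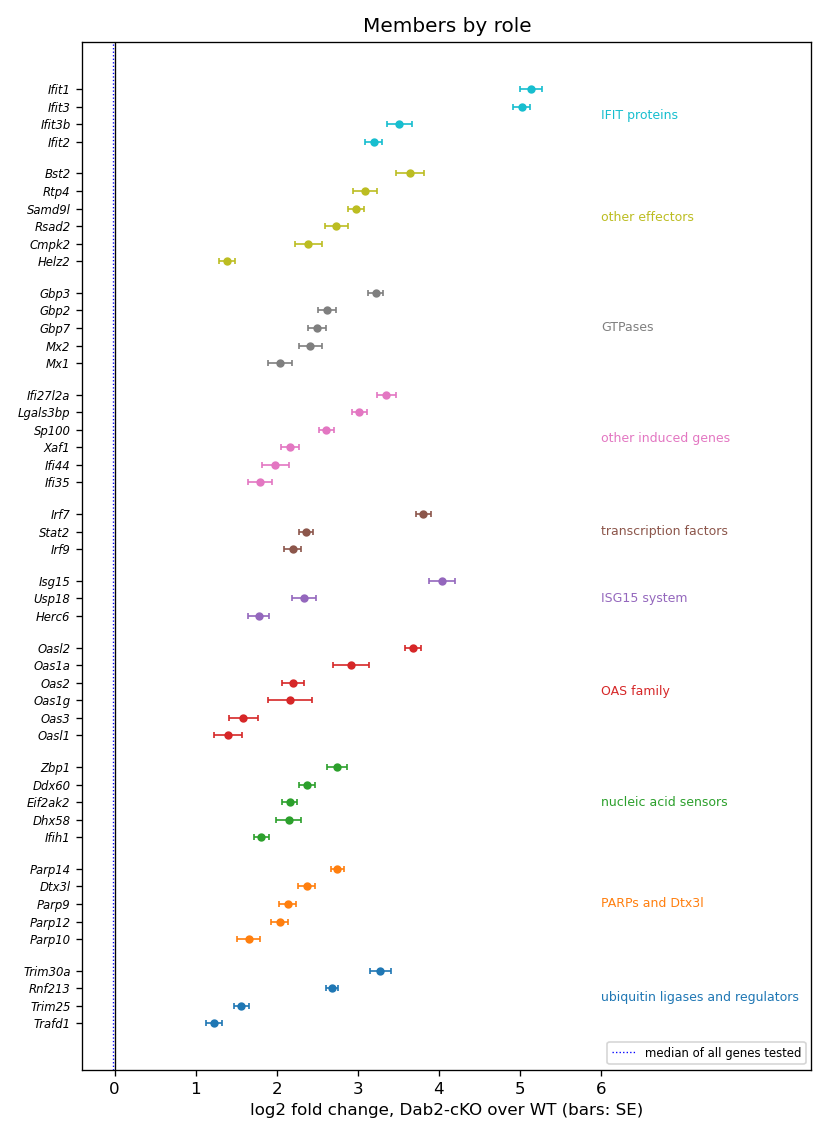
Log2 fold change of each member, Dab2-cKO over WT, with its SE from edgeR (3 libraries a genotype), grouped by role and ordered by the median of the role, with the median of all genes as a dotted line at -0.02. Ifit1 at 5.14 and Ifit3 at 5.02 stand apart from the other 45 members, which run from 1.23 to 4.04.

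Levels can be compared between genes only per exon length, and here they were set against 1742 olfactory and vomeronasal receptor genes, which these cells are not expected to use and which give the level of stray reads. The median of these receptor genes was 4.98 normalized counts per kb of exon in WT and 4.88 in Dab2-cKO, and their 95th percentile was 14.1 and 12.9. Per kb, the members' median was 19.5 in WT and 119 in Dab2-cKO. In WT, 37 members were above the receptor genes' 95th percentile and 10 were not, namely Ifit1, Oas1a, Oas1g, Oas3, Rsad2, Ifi44, Trim30a, Rtp4, Cmpk2 and Herc6. Ifit1 at 3.88 and Oas1a at 2.46 per kb in WT were below the receptor genes' median, so that expression of these 2 genes was not detectable above stray reads there and their fold changes rest on such a level. The others of the 10, from Trim30a at 5.28 to Rsad2 at 11.3 per kb, lay between the median and the 95th percentile. They were not shown to be above stray reads in WT, so their fold changes are uncertain too. In Dab2-cKO all 47 were above the 95th percentile, from Oas1a at 18.4 per kb to Ifi27l2a at 689. The highest in Dab2-cKO after Ifi27l2a were Isg15 at 511, Ifit3 at 500.3, Irf7 at 350.2 and Gbp3 at 323 per kb, whereas in WT the highest were Ifi27l2a at 67.5, Trim25 at 45.1, Rnf213 at 42.6 and Trafd1 at 41.5. Isg15 and Ifit3, which are neighbours in the Dab2-cKO order, did not differ beyond the spread of their libraries. The median log2 fold change of the 37 members above the receptor level in WT was 2.37, close to that of all 47. Exon lengths were those of all transcripts merged (GENCODE M39), which lowers the level of genes with long rare exons.

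**Figure D4:**
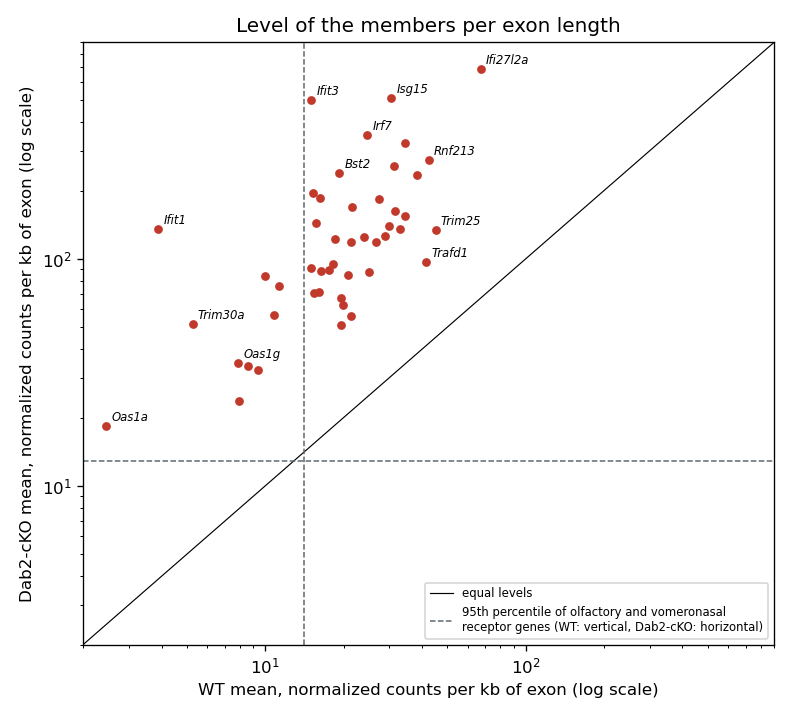
Mean level of each member per kb of exon in WT (x axis) and Dab2-cKO (y axis), both on log scales, with the line of equal levels and dashed lines at the 95th percentile of 1742 receptor genes (14.1 in WT, 12.9 in Dab2-cKO). All 47 points lie above the line of equal levels and above the horizontal dashed line, and 10 lie left of the vertical one.

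In the genome (GRCm39, GENCODE M39), the 47 members lay on 16 chromosomes, and 20 of them fell into 7 clusters with gaps of at most 200 kb between genes. The Ifit cluster (chr19:34527932-34632174) held Ifit2, Ifit3, Ifit3b and Ifit1, and the Oas cluster (chr5:120868398-121046449) held Oas2, Oas3, Oas1g and Oas1a. The others were Oasl2 with Oasl1 (chr5:115034997-115075974), Gbp7, Gbp3 and Gbp2 (chr3:142236044-142343779), Parp14, Dtx3l and Parp9 (chr16:35653231-35792980), Mx1 with Mx2 (chr16:97248235-97362100) and Rsad2 with Cmpk2 (chr12:26492745-26529836). These clusters held 10 other protein-coding genes that passed the filter, of which 5 were called higher and 0 lower (edgeR, adjusted p under 0.05). The 5 were Ifit1bl1 (log2 fold change 1.18) and Ifit1bl2 (1.21) in the Ifit cluster, the latter at low counts and not called without WT library 1 or 2 or Dab2-cKO library 1 or 2 (0.91 to 1.13), and Oas1b (1.58), Oas1c (1.23) and Oas1f (1.59) in the Oas cluster. In the same Oas cluster Oas1d (-0.10, and 0.46 or 0.33 without the first WT or Dab2-cKO library), Oas1e (0.39) and Oas1h (-0.54) were not called, nor was Gbp2b (-0.28, and 0.15 without WT library 1) in the Gbp cluster or Fam3b (-0.06) between the Mx genes. These genes were named after their values were seen. In WT, Ifit1bl2 had 3.21 and Oas1c 8.40 normalized counts per kb of exon. Both lay under the 95th percentile of the olfactory and vomeronasal receptor genes (14.1), so their fold changes are uncertain. The nearest protein-coding genes on either side of the members that are in no list used here numbered 68, of which 20 were called higher (29.4%) and 14 lower, with a median log2 fold change of 0.04, while 24.9% of all 19501 protein-coding genes tested were called higher. The median of the members was 2.39.

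The rest of the interferon pathway was read from lists of 181 further genes, set out by function and not by how they moved, of which 180 were in the table and 163 passed the filter. Of these 163 genes, 118 were called higher and 7 lower in the libraries labelled Dab2-cKO (edgeR, adjusted p under 0.05, beside 16.8% and 11.5% of all genes), with a median log2 fold change of 1.13. Among protein-coding genes alone the shares were 24.9% higher and 15.4% lower. With library size only as the scaling, 97 were called higher and 24 lower. Lists of this kind were put together with earlier results of these data known, and the immune cell markers given above rose as well, to 3.83 times in sum.

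The interferons themselves had few counts. Of 21 ligand genes, 4 were above the receptor genes' 95th percentile per kb of exon in both genotypes, namely Ifna5, Ifna9, Ifna15 and Ifnk, and 15 did not pass the low-count filter, among them Ifnb1, with 10.02, 4.51 and 10.3 normalized counts in WT and 0.954, 9.21 and 7.73 in Dab2-cKO, and Ifng, with 14.5, 6.32 and 8.54 against 11.4, 17.3 and 2.21. Of the 6 that passed, 0 were called higher, 1 was called lower and 5 were not called (at these counts a difference was hard to detect). The 1 called lower was Ifne, an interferon of epithelia, with 14.5, 27.1 and 13.7 against 2.86, 4.60 and 13.2 (log2 fold change -1.43 ± 0.53, edgeR adjusted p = 0.0339). It was not called by DESeq2 (-1.44), nor without WT library 2 (-1.03), Dab2-cKO library 1 (-1.06) or Dab2-cKO library 2 (-1.26). Ifnk, the keratinocyte interferon, had the highest count, with 35.6, 34.3 and 28.2 against 42.0, 18.4 and 21.0 (-0.24 ± 0.32), and per kb of exon 39.9 in WT and 33.1 in Dab2-cKO. The summed ligand counts were 209 to 213 in WT and 142 to 181 in Dab2-cKO. Of the 21 ligands, 7 in WT and 6 in Dab2-cKO were above the receptor genes' 95th percentile. The sum thus rests mostly on genes near the level of stray reads, and whether their transcripts rose cannot be judged from it. Cells outside the sort were not measured.

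Of the 6 receptor chains, 3 were called higher and 0 lower, among them 1 of the 2 chains for type I interferon. Among protein-coding genes tested, 24.9% were called higher and 15.4% lower, and nothing is read from so small a count. Ifnar2 rose from 46.8, 36.1 and 34.2 normalized counts to 85.8, 130.0 and 113 (log2 fold change 1.49 ± 0.22, edgeR adjusted p = 2.1e-08), whereas Ifnar1 had 366, 328 and 301 against 362, 390.1 and 379 (0.19 ± 0.10, adjusted p = 0.175). The libraries of Ifnar1 overlapped between genotypes and those of Ifnar2 did not. Per kb of exon Ifnar2 had 10.4 in WT and 29.3 in Dab2-cKO. Its WT level lay under the 95th percentile of the olfactory and vomeronasal receptor genes (14.1), so its fold change is uncertain. Both chains of the interferon gamma receptor rose, Ifngr1 from a mean of 334 to 774 (1.21 ± 0.09, adjusted p = 4.23e-20) and Ifngr2 from 224 to 399 (0.83 ± 0.11, adjusted p = 3.64e-10). The receptor for type III interferon was not called in either chain, with 0.19 ± 0.36 for Il10rb and -0.10 ± 0.18 for Ifnlr1, which with library size only had -0.53 and was called lower. Il10rb had 3.58 normalized counts per kb of exon in WT and 4.07 in Dab2-cKO. Both were below the medians of the olfactory and vomeronasal receptor genes, so its expression was not detectable above stray reads. Differences between receptors were not tested.

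Of the 11 JAK kinases, STATs and IRFs that are not members, 10 were called higher, beside 24.9% of protein-coding genes tested. Irf1, an activator of interferon genes, rose from 73.5, 52.4 and 82.9 normalized counts to 223, 211 and 238 (log2 fold change 1.69 ± 0.16, edgeR adjusted p = 4.86e-15). The 2 genotypes did not overlap in this gene. Among the kinases, Jak1 rose by 1.18 ± 0.07, Jak2 by 0.58 ± 0.09 and Tyk2 by 0.31 ± 0.11, and Tyk2 was no longer called in 9 of the 14 alternative settings, among them without WT library 3 and without any 1 Dab2-cKO library (0.24 to 0.30), and changed sign, to -0.12, with library size only. Stat3 rose by 1.05 ± 0.08, Irf4 by 0.95 ± 0.13, Irf2, a repressor of interferon genes, by 0.89 ± 0.10, and Irf5 and Irf8, which are abundant in myeloid cells, by 0.68 ± 0.14 and 0.68 ± 0.17. With library size only Jak2 (0.15), Irf5 (0.25) and Irf8 (0.26) were no longer called. Irf8 had 8.51 normalized counts per kb of exon in WT. This lay under the 95th percentile of the olfactory and vomeronasal receptor genes (14.1), so its fold change is uncertain. Irf3, which sensors activate without new transcription, had 214, 251 and 222 against 234, 268 and 249 (0.12 ± 0.11, adjusted p = 0.504), with libraries that overlapped.

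Of 22 sensors and adaptors that passed the filter, 15 were called higher and 1 lower, beside 24.9% and 15.4% of protein-coding genes tested. Ifi204, a DNA sensor, rose from 74.6, 87.6 and 61.5 normalized counts to 587, 625 and 634 (log2 fold change 3.04 ± 0.12, edgeR adjusted p = 6.72e-34), Samhd1, which breaks down nucleotides, by 2.24 ± 0.08, Ddx58, the RNA sensor now named Rigi, by 2.05 ± 0.10, and Tlr7, an endosomal RNA receptor of immune cells, by 1.63 ± 0.21. Tlr7 had 7.48 normalized counts per kb of exon in WT. This lay under the 95th percentile of the olfactory and vomeronasal receptor genes (14.1), so its fold change is uncertain. The 1 called lower was Traf3, an adaptor of Mavs (-0.44 ± 0.10, adjusted p = 0.000374). Trex1 was listed at 0 counts in all 6 libraries. The median log2 fold change of the list was 0.62.

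The negative regulators did not move as 1 group, with 5 of 13 called higher, 3 lower and a median log2 fold change of -0.05. These small counts stand beside 24.9% higher and 15.4% lower among protein-coding genes, and nothing is read from them. Ptpn6, a phosphatase of blood cells, rose by 1.47 ± 0.11, Socs3 by 1.39 ± 0.14, Tnfaip3 by 1.03 ± 0.12 and Pias3 by 0.99 ± 0.14, while Socs1, a brake on the JAK kinases, had 0.64 ± 0.24 (edgeR adjusted p = 0.0375), a call lost in 10 of the 14 alternative settings, among them leaving out each library other than Dab2-cKO library 2 (0.50 to 0.70). On the log2 scale Cish fell by 0.54, Ptpn11 fell by 0.46 and Nlrx1 fell by 0.45, and these 3 were named as the list's calls in that direction. The ISG15 conjugation enzymes rose beside Isg15, Uba7 (the E1) by 1.72 ± 0.13 and Ube2l6 (the E2) by 2.27 ± 0.17, whereas Abce1, a ribosome recycling factor on the same list, fell from 1156, 1249 and 1205 normalized counts to 618, 732 and 672 (-0.84 ± 0.08, adjusted p = 2.75e-15). In WT, Socs1 had 12.1 and Uba7 13.9 normalized counts per kb of exon. Both lay under the 95th percentile of the olfactory and vomeronasal receptor genes (14.1), so their fold changes are uncertain.

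The list of other interferon-stimulated genes moved with the members. Of 73 that passed the filter, 61 were called higher, 1 lower and 11 not called, with a median log2 fold change of 1.34. Among protein-coding genes tested, 24.9% were called higher and 15.4% lower. Ifitm3, which blocks virus entry, rose from 126, 129 and 131 normalized counts to 1323, 1259 and 1408 (3.37 ± 0.09, edgeR adjusted p = 1.85e-43). Slfn1 (3.38 ± 0.20) and Slfn2 (3.20 ± 0.13), which keep T cells quiescent, and Ifi207 (3.26 ± 0.12) rose by as much. Slfn1 had 9.48 normalized counts per kb of exon in WT. This lay under the 95th percentile of the olfactory and vomeronasal receptor genes (14.1), so its fold change is uncertain. The median member, at 2.39, was above the median of this list, as the choice of the members by their values would give. Of the 28 genes known best for interferon gamma, 22 were called higher and 0 lower, with a median of 1.46. Gm4070, a very large GTPase gene named Gvin2 in GENCODE, rose by 3.45 ± 0.26, Iigp1 by 3.08 ± 0.09, Irgm2 by 2.78 ± 0.14 and Igtp by 2.70 ± 0.18. Not every gene of this list rose: Cxcl9, a chemokine for T cells, rose by 1.12 ± 0.26 (adjusted p = 0.000319), while Cxcl10 (0.34 ± 0.34, and -0.0081 without WT library 2), Cxcl11 (-0.36 ± 0.28), Ido1 (-0.39 ± 0.30), Gbp2b, Gbp8 (0.52 ± 0.25) and Gbp11 (0.56 ± 0.27) were not called, Gbp8 being called at 0.73 without WT library 1 or without Dab2-cKO library 2. The not-called genes were named after their values were seen, and all had means of at most 61.2 normalized counts in either genotype.

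**Figure D5:**
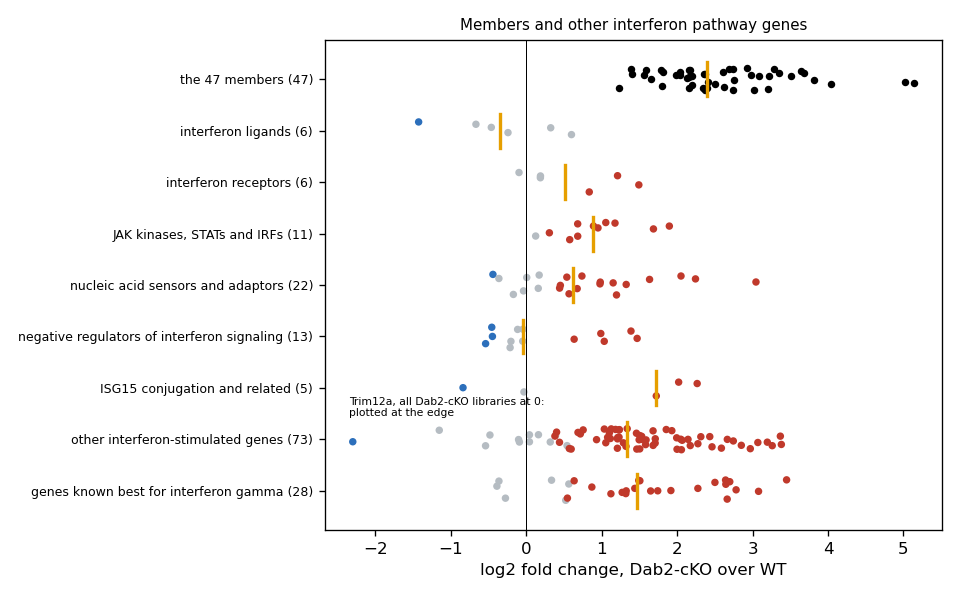
Log2 fold change, Dab2-cKO over WT, of the 47 members (black, description only) and of the other interferon pathway genes that passed the filter, by list with the number of genes, in red where called higher, blue where called lower and grey where not called (edgeR, adjusted p under 0.05), with the list median as an orange bar and Trim12a, at 0 counts in Dab2-cKO, set at the left edge. The ligands lie around or below 0, and the lists of interferon-stimulated and interferon gamma genes lie mostly above 0, with medians of 1.34 and 1.46.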

How the data were processed

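Total RNA (5 ng) from FACS-sorted HFSCs was sequenced with a stranded total RNA kit for low input. Per the submitters' processing notes and the study's methods, reads were trimmed with fastp 0.23.4, aligned to GRCm39 with HISAT2 2.2.1, handled with SAMtools 1.6 and counted per gene with featureCounts 2.0.6. The strand setting, the treatment of multi-mapped reads and the annotation release are not given in the sources used here. The deposited values are raw read counts of 56941 Ensembl genes in 6 libraries, as the authors made them. The strand and multi-mapping settings bear on overlapping and near-identical genes, of which only some are marked above. Herc6 (12.2% of its exon length) and Gbp7 (10.6%) also overlap another gene on the same strand, and Trafd1 (14.2%) does so on the opposite strand. Smaller overlaps are given for some members only, and sequence similarity between gene bodies was not checked. A second deposited table, the authors' DESeq2 output with fold changes, p-values and scaled counts, was not used. The columns named FL-FL were taken as Dab2-cKO, since the series title equates homozygous Dab2 cKO with Dab2 Fl/Fl. Both genotypes carry the floxed allele, so the column name alone does not tell them apart.

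Members and lists were chosen with earlier results of these data known. Genes were filtered with filterByExpr, scaled by TMM and tested with the quasi-likelihood test of edgeR 4.0.16 (R 4.3.3) over all 32149 genes kept, with Benjamini-Hochberg adjustment and a threshold of 0.05; the fit was tested on simulated data. A SE is the log2 fold change divided by the root of its F statistic. P-values measure the spread between 3 libraries a genotype. Every member is given by role. Values in all libraries are given for the 12 members with the highest mean, the 5 largest and 5 smallest changes and members compared within clusters; of the pathway lists, every receptor, JAK, STAT and IRF is named apart from what is not reported here, and in each other list the 4 largest called changes among genes with a mean of at least 50 normalized counts. Further names were chosen after values were seen and are marked. Gene positions and merged exon lengths are from GENCODE M39 (GRCm39), promoters from RefSeq (GRCm38.p6). Alternatives were DESeq2 1.42.0, 4 other scalings (that to Actb added after seeing the data), 2 other filters, a replicate block, and leaving out each library, and, for the motif, a shorter window and a longer motif.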

Additional observations from a re-analysis of the deposited data

How the results depend on the processing

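Under all 14 alternatives the members that were tested had log2 fold changes above 0, the lowest being 0.80 with library size only, and all were called higher (46 of 46 when a mean count of at least 50 was required). Of all 32149 genes tested, 5387 were called higher in the main fit and 2686 with library size only. The members' calls follow from their choice on these same libraries, and nothing is read from them. The members' median of 2.39 moved to 2.25 with upper-quartile scaling, to 2.27 when scaled to Actb and to 1.97 with library size only, and lay between 2.35 and 2.44 when 1 library was left out. Over all genes, 9069 were called, 13854 with library size only, 7891 by DESeq2 and 8052 to 8574 without 1 library. Of the other pathway genes, 125 were called (114 to 127 over all alternatives), and the 7 called lower became 12 with upper-quartile scaling and 24 with library size only. Some values near 0 changed sign: with library size only Ifnar1 went to -0.24, Il10rb to -0.24, Tyk2 to -0.12, Irf3 to -0.30, Oas1e to -0.035 and Cxcl10 to -0.10, with upper-quartile scaling Irf3 went to -0.018, and with 1 library left out Oas1d ran from -0.47 to 0.46, Gbp2b from -0.65 to 0.15 and Cxcl10 from -0.0081 to 0.59. The cause was not tested. With a replicate block the calls were 8967, the members' median stayed at 2.39 and 126 pathway genes were called. Pairing by replicate number was not seen: same-numbered WT and Dab2-cKO libraries correlated at 0.07, -0.02 and 0.06 in their deviations from the group means. With 3 libraries a genotype, these correlations cannot show that the samples were unpaired. The share of member promoters with the ISRE core was 41.7% in the 250 bases before the start alone and 47.2% with the longer motif (C or G after the core). Depth limits the ligands, of which 15 of 21 did not pass the low-count filter.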

Other observations

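Outside the members, 4 genes had a mean of at least 30 counts in the libraries labelled WT and at most 1 count in all libraries labelled Dab2-cKO together, and 0 genes showed the reverse. One of them, Trim12a, is on the list of other interferon-stimulated genes and was its only call in the lower direction. It had 74, 86 and 79 counts in WT and 0, 0 and 0 in Dab2-cKO. Its paralog Trim12c rose by 2.28 ± 0.12 on the log2 scale (edgeR adjusted p = 1.25e-26), and the member Trim30a, which lies nearby on chromosome 7, had 3.28 ± 0.13. Trim30a had 5.28 normalized counts per kb of exon in WT, under the receptor genes' 95th percentile, so its fold change is uncertain. At the median level of the receptor genes that stand for stray reads in Dab2-cKO, an exon length of 12255 bases would give 59.8 normalized counts, so that Trim12a lay below the level of stray reads there. In WT it had 6.14 normalized counts per kb of exon, near the receptor genes' median of 4.98 and under their 95th percentile of 14.1, so that it was not shown to be above stray reads and no fold is given. Reads shared with Trim12c may have been counted to either gene. The others were Skint4, with 88, 100 and 114 counts against 0, 0 and 0 (at least 89.5-fold lower with 3 counts over the group as the floor, a bound that covers counting error only), Skint3, with 127, 134 and 153 against 0, 0 and 1, which lies near it on chromosome 4, and the hair protein gene Krtap19-9a, with 170, 256 and 233 against 0, 0 and 0 (at least 195-fold lower). All 18 hair shaft and inner root sheath markers were called lower too, with summed means of 276592 in WT and 2614 in Dab2-cKO, so Krtap19-9a was not alone among hair genes. These 4 genes were found by a search made after the data were seen, and no explanation for them was tested. The strain name given for all mice is that of a mixed background, and whether the 2 groups carried the same alleles at these loci was not tested.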
